A study of Mus musculus with 3 samples.

Results

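The comparison described here set the array of mouse C3H10T1/2 cells exposed to 1 uM hexavalent chromium, Cr(VI), against the array of untreated cells of the same line. C3H10T1/2 is an established line of fibroblast-like cells from mouse embryos that is used in assays of cell transformation. Of 27722 genes on the array, 12463 were compared, because a probe of theirs was detected, well above background, on 1 or both of the 2 arrays. These genes were covered by 18098 of 41167 probes. The study had 3 arrays in all, and the third, from cells given 0.01 uM Cr(VI), is printed beside the other 2 where levels are given.

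Cells were plated at 2000 per flask, with 3 flasks for each group, and the metal was added 24 h later. It was washed away after 48 h, the cultures were fed until day 15, and RNA was then taken, so the arrays describe cells long after the metal had been removed. Untreated cells went through the same schedule without the metal. Each group had 1 array, and the labels do not say whether RNA of the 3 flasks was combined. No test between the groups was therefore possible, no p-value was computed, and every difference is one between 2 single arrays.

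Cr(VI) enters cells as chromate through anion transporters and is reduced inside them, which yields DNA adducts and oxidants. Mesenchymal cells of this kind make the fibrous matrix, proteoglycans and soluble complement proteins of connective tissue, and they receive BMP, hedgehog and Notch signals that bear on their differentiation. Growing cells also spend much of their transcription on ribosome assembly, which starts with RNA polymerase I in the nucleolus, and they make sterols under the control of the SREBP and INSIG proteins.

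A level is the log2 processed signal of a probe minus the 75th percentile of its array, and a difference is the level at 1 uM minus the untreated level. Where 1 array was not well above background, or was saturated, the difference is a bound, written "at least" or "a bound of", and a median or range over probes can include bounds. A gene above background only on the untreated array could come out only lower, and one above it only on the 1 uM array only higher. Replicate spots of a probe had a median SD of 0.0581 on the untreated array (124 probes) and 0.0615 on the 1 uM array (127 probes), and the median standard error of a difference in the scanner's error model was 0.21. These errors are technical and leave out the spread between cultures. Detection was alike on the 2 arrays compared, with 41.8% (untreated) and 41.5% (1 uM) of probes well above background, and 36.4% at 0.01 uM. Probes of different genes bind with different strength, so levels are not set against each other between genes.

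The labelled cell type was checked on marker lists. Of 16 mesenchymal markers, the untreated array detected 15, the 0.01 uM array 15 and the 1 uM array 14, and their summed linear level was 768, 920 and 608 times the 75th percentile. Probes of 5 of the 16 were saturated on 1 or more arrays, so this sum has a ceiling, and over the other 11 it was 299, 344 and 240. Epithelial markers were nearly absent, with 0, 0 and 1 of 13 above background and sums of 0.437, 0.714 and 0.756, and Epcam was above background on neither of the 2 arrays compared. Of 12 endothelial markers 2, 2 and 3 were above background, with sums of 6.34, 6.04 and 9.85, of 12 neural markers 4, 3 and 3, with sums of 2.0, 2.06 and 2.67, and of 12 skeletal muscle markers 2, 1 and 2, with sums of 1.5, 1.81 and 0.917. In RNA from whole cultures, fewer cells of a kind and less RNA per cell cannot be told apart.

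Genes with several probes were examined first. A gene was called agreeing when it had 2 or more compared probes, every one lay at least 1.5-fold the same way, and their median lay at least 2-fold. Of 4233 genes with several compared probes, 80 were agreeing and higher at 1 uM, which is 1.89%, and 129 were agreeing and lower, which is 3.05%. The lower genes started from a median untreated level of 2.50 and the higher genes from one of -0.36. The smallest median among the higher agreeing genes was 1.01, and a further 113 genes had all probes at least 1.5-fold higher but a median under 2-fold.

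Islr, a secreted leucine-rich repeat protein of stromal cells, stood at 5.05 on the untreated array, 5.50 at 0.01 uM and 0.62 at 1 uM. Its difference was -4.43, and its other probe gave a bound of -3.64. The brightest Islr probe lies on chromosome 9 from 58004219 to 58004278 in the mm9 coordinates of the array files. Deptor, an inhibitor of the mTOR kinase, stood at 2.47, 2.66 and -0.56, a difference of -3.03 (8.16-fold lower). The other Deptor probe gave -3.17. In both genes the untreated and 0.01 uM arrays stood close together, while the distance of the 1 uM array follows from how the genes were picked.

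Svep1, a large extracellular adhesion protein, stood at 5.34, 5.43 and 2.38 in the same order, a difference of -2.96. Its other probes gave -2.94 and a bound of -1.69. Id2, a helix-loop-helix inhibitor of differentiation, stood at 2.84, 2.98 and -0.11, a difference of -2.95 with the other probe at -2.83. Col2a1, the cartilage collagen, stood at 3.13, 3.48 and -0.04, and its 2 probes, which overlap, gave -3.17 and -3.12. For Id2, whose probes lie apart, the gap between probes was small against the difference.

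Igf2, a fetal growth factor from an imprinted locus, stood at 2.29, 2.63 and -1.28, and its probes gave -3.57 and a bound of -2.17. Gpc6, a cell-surface heparan sulfate proteoglycan, stood at 0.61, 0.78 and -3.20, at least 10.7-fold lower, since it was not well above background at 1 uM. Rarres2, the chemoattractant chemerin, was likewise lost from detection, at 0.94, 1.46 and -2.84. Fbln1, a matrix glycoprotein, stood at 0.46, 0.78 and -2.73, and Mme, the cell-surface peptidase neprilysin, at 0.99, 1.42 and -1.80. Tcp11l2 (0.97, 1.16 and -2.02, 3 probes) and Clmn (0.13, 0.38 and -1.82) completed the 12 genes with the largest lower medians. In all 12 the 0.01 uM level lay above the untreated level, by 0.09 to 0.53, and the median of this difference over all 129 lower agreeing genes was 0.18. No value over all genes is given beside it, so a response to 0.01 uM and a shift of that whole array cannot be told apart.

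On the higher side, Ccl5, a chemokine that draws T cells and monocytes, stood at 2.16 untreated, 2.11 at 0.01 uM and 4.57 at 1 uM. Its difference was 2.41 (5.31-fold), and its probes lay within 2.39 to 2.41. The brightest Ccl5 probe lies on chromosome 11 from 83339296 to 83339355 (mm9). Serpinb2, an inhibitor of plasminogen activators, stood at -2.85, -3.42 and -0.62, a difference of 2.23. Tnc, a matrix glycoprotein of developing and wounded tissue, stood at 0.99, 0.65 and 2.60, and its 3 probes gave 2.10, 1.61 and a bound of 1.03. All 3 genes were picked as higher at 1 uM than untreated, and their 0.01 uM levels lay below the untreated ones.

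Abcb1b, a drug efflux pump, stood at -0.60, -0.91 and 0.92, a difference of 1.52 with the other probe at 1.64. Tead2, a DNA-binding partner of YAP, stood at -0.95, -1.0 and 0.46, with probes at 1.41 and 1.55. Olfml2b, a secreted matrix-binding protein, stood at -0.72, -1.07 and 1.11, and Spn, the surface sialoglycoprotein CD43, at -1.30, -1.49 and 0.62. Il18bp, a soluble inhibitor of interleukin 18, stood at -1.82, -2.63 and -0.43, and Il20rb, a cytokine receptor chain, at -0.10, -0.52 and 1.16. Nop56 (median over probes 1.64) is described with the ribosome assembly genes below. Ppargc1b, a transcriptional coactivator of mitochondrial genes, stood at -1.25, -1.23 and 0.03. Ccdc92 was at least 2.42-fold higher, at -3.08, -3.11 and -1.74. Over these 12 genes the difference at 0.01 uM ran from -0.80 to 0.02, and its median over all 80 higher agreeing genes was -0.14, again without a value over all genes beside it.

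**Figure D1:**
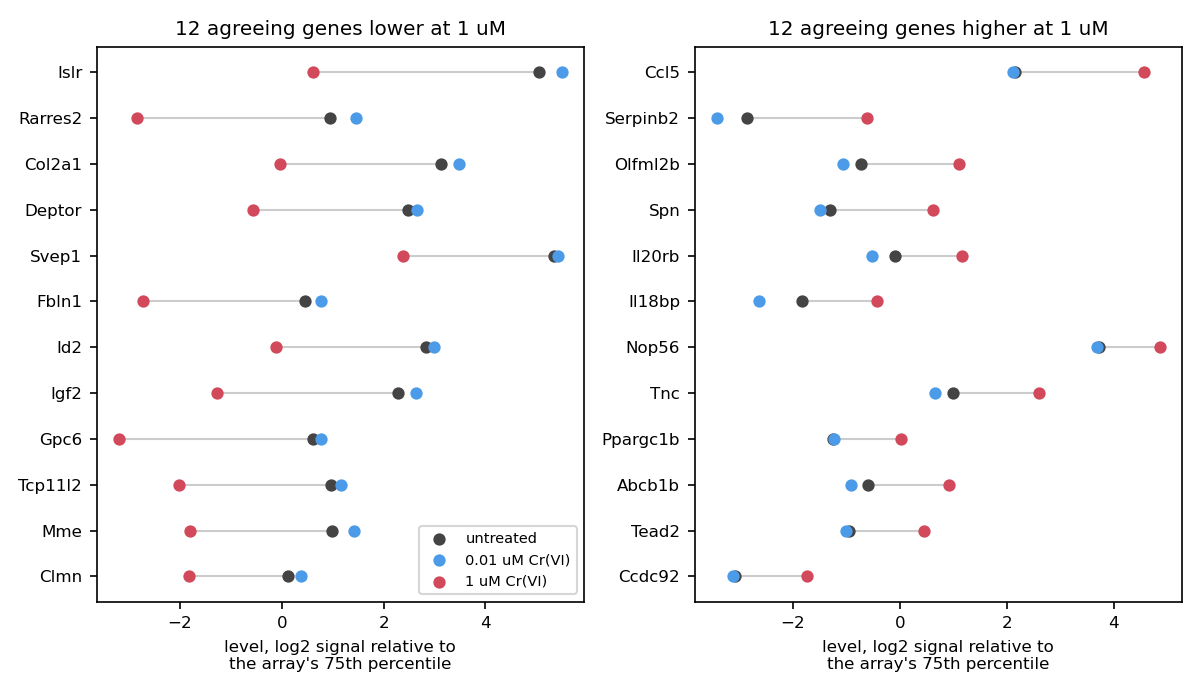
Level of the 12 agreeing genes with the largest lower medians (left) and higher medians (right) on the 3 arrays, by the brightest probe of each gene, in log2 units relative to the 75th percentile of the array. Each point is 1 array and the line joins the untreated and 1 uM values. The genes were picked for their 1 uM difference, so the 1 uM point stands away from the untreated one by selection. The 0.01 uM point differs from the untreated one by -0.80 (Il18bp) to 0.53 (Rarres2).

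Beyond the 12 named by size, the agreeing lower genes held further regulators, picked here after their values were seen. Klf9, a Kruppel-like transcription factor, stood at 2.55, 2.72 and 0.65, with probes at -1.96 and -1.90. Sfrp1, a secreted Wnt inhibitor, had a median over its probes of -2.18. Txnip and Arrdc4, related arrestin-fold genes that limit glucose uptake, had medians of -1.11 and -1.01. Prl2c3 (median -1.66) and Prl2c5 (median -1.52) belong to a family of near-identical prolactin-like genes, so their separate values are uncertain.

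The agreeing higher genes outside the top 12, also picked after their values were seen, included Hmga2, a chromatin protein of embryonic cells, at 2.81, 2.55 and 4.12, whose 3 probes gave differences of 1.27 to 2.75. Crem, a cAMP-responsive transcription factor, had 5 probes, all between 0.96 and 1.18. Bcl2, a survival protein, had a median of 1.29, Lig4, a DNA end-joining ligase, one of at least 1.19, and Chd7, a chromatin remodeller, one of at least 1.30. Nlk (1.20), Vangl2 (1.18) and Tcf7 (at least 1.23) act in Wnt or planar polarity signalling. Jak3, a cytokine receptor kinase, had 3 probes with a median of at least 1.24.

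How far probes of 1 gene gave 1 answer can be read from genes with exactly 2 measured probes, of which there were 2788. In 156 of them the brighter probe was at least 2-fold apart, and the dimmer probe lay on the same side in 154 and was itself at least 2-fold apart the same way in 89. The median SD over probes of a gene was 0.15 (3690 genes), and its 90th percentile was 0.51. Of the 239 genes with a median past 2-fold, 209 were agreeing (87.4%). Their probes did not overlap in 193 of the 209, but they measure the same RNA and are not replicates of the exposure.

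**Figure D2:**
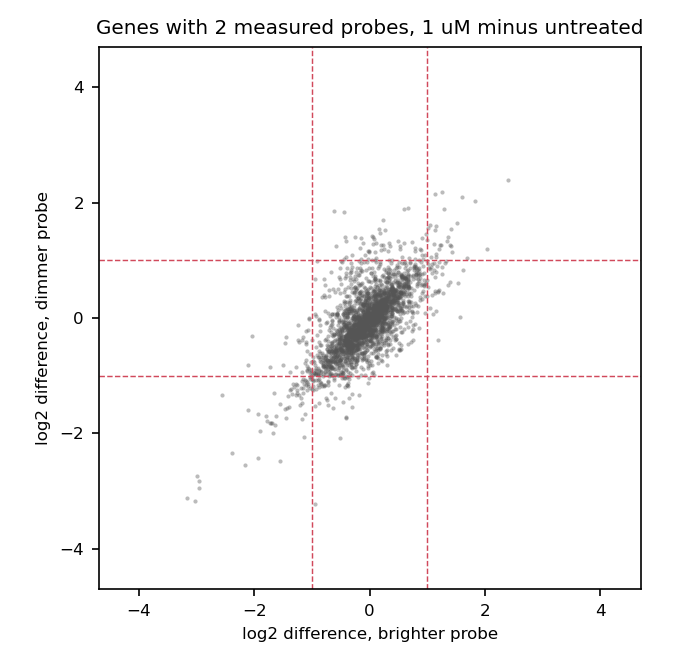
Log2 difference, 1 uM minus untreated, of the brighter probe (x axis) and the dimmer probe (y axis) of 2788 genes with 2 measured probes. Each point is 1 gene and dashed lines mark 2-fold. Of 156 genes whose brighter probe is past 2-fold, 154 have the dimmer probe on the same side.

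Counted by the brightest probe of each gene, 707 genes (5.67% of those compared) were higher by 2-fold or more and 605 (4.85%) were lower by as much. These shares are the background for the gene lists below. Higher genes made up 53.9% of those past 2-fold. That share was 66.3% after loess scaling between the arrays, 94.7% after scaling on 5 spike-in controls and 39.0% with normexp background correction. Among the agreeing genes it was 38.3%, and 55.3%, 96.1% and 24.2% in the same order. With spike-in scaling the median over all genes compared was 0.67, and all differences here are given relative to the 75th percentile instead. A gene without a fold, such as one saturated on both arrays, is left out of a list median but stays in the number compared. In a median over the probes of a gene, a probe without a fold counts as 0.

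Genes of ribosome assembly were higher as a broad, small shift. Of 75 compared, 65 lay above 0, 27 were at least 1.5-fold higher, 13 by 2-fold or more, and 0 were lower by as much. Over all 12463 genes compared, 5838 lay above 0 and 13.9% were at least 1.5-fold higher. The list median was 0.47, against -0.03 over all genes, and lay between 0.42 and 1.15 under the scaling, background and filter alternatives. Polr1b, the second-largest subunit of RNA polymerase I, stood at -1.44 untreated, -1.51 at 0.01 uM and 0.58 at 1 uM, a difference of 2.02 (4.07-fold, error-model standard error 0.24). Polr1e, another subunit, stood at -1.85, -1.90 and -0.35. Ubtf, the factor that opens ribosomal DNA, had 2 probes at 0.55 and 0.64, under 2-fold.

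Genes of later steps were higher too. Heatr1, a small-subunit processome scaffold, stood at -0.05, -0.21 and 1.62. Nop56, a core protein of the box C/D particles that methylate rRNA, stood at 3.73, 3.68 and 4.86, with probes at 1.14 and 2.15. Bysl, which acts in small-subunit maturation, stood at 1.14, 0.95 and 2.52, and its 3 probes gave 1.33 to 1.45. Ddx21, a nucleolar helicase, stood at -0.38, -0.54 and 0.70.

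For the large subunit, Nop2, an rRNA methyltransferase, stood at 2.31, 2.31 and 3.66, and Bop1, a processing factor, at 1.13, 1.25 and 2.41. Ftsj3 stood at 0.35, 0.48 and 1.74, and Rrp12 at -2.73, -3.13 and -1.35. Taf1d had 4 probes from -0.09 to 1.52 and a median of 0.21, so its brightest probe does not stand for the gene. Of 2 abundant nucleolar proteins, nucleolin (Ncl) differed by at least 0.30 and Npm1 by -0.28. Of 27 list members with several probes, 3 were agreeing and higher and 0 lower.

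The E-box CACGTG, the site bound by MYC and related factors, was found in the window from 250 bases before to 50 after the start of 12 of 69 ribosome assembly genes with a promoter sequence (17.4%), against 8.09% of 27025 genes. It is a palindrome, so both strands are covered. Among the genes at least 2-fold higher it was in 2 of 11, and among the rest in 10 of 58. The Nop2 stretch is shown as an example of such a match, with the E-box in capitals, from RefSeq (GRCm38.p6, plus strand, chr6:125131798-125131853).
Nop2: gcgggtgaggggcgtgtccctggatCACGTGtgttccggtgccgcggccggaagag

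Genes that supply growth with precursors were less uniform. Of 49 polyamine, nucleotide and one-carbon genes, 4 were higher by 2-fold or more and 0 lower, and the list median was 0.19. Srm, spermidine synthase, stood at 2.50, 2.55 and 3.55, and Ada, adenosine deaminase, at -1.02, -0.94 and 0.28. Pfas, an enzyme of purine synthesis, stood at -2.68, -2.54 and -1.49. Shmt1 was 2.62-fold higher by its brightest probe, but its other probe gave a bound of 0.37.

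Of 63 pre-mRNA splicing genes, 3 were higher by 2-fold or more and 0 lower (median 0.09). Srsf1, a serine- and arginine-rich splicing factor, stood at 2.09, 2.11 and 3.53, with probes at 1.44 and a bound of 1.06. Sfpq stood at 0.61, 0.67 and 1.84. Srsf10 had 4 probes between 0.64 and 1.1. Of 51 tRNA synthetase and ATF4 genes, 1 was higher, the glutathione-degrading enzyme Chac1, at 4.22, 4.23 and 5.36.

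The sterol pathway was the list with the most agreeing higher genes. Of 47 sterol and fatty acid genes, 7 were higher by 2-fold or more and 1 lower by the brightest probe, and of 24 with several probes, 7 were agreeing and higher and 1 lower. The median was 0.46 and lay between 0.35 and 1.14 under the scaling, background and filter alternatives. Cyp51, a demethylase of lanosterol, stood at 0.69 untreated, 0.57 at 0.01 uM and 2.00 at 1 uM, with 3 probes from 0.96 to 1.59.

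Idi1 (1.32 and a bound of 1.07), Hmgcs1 (1.34 and a bound of 0.85) and Fasn (0.90 and a bound of 1.18), which act in isoprenoid, sterol and fatty acid synthesis, also agreed. The 2 INSIG genes, whose proteins hold SREBP back in the endoplasmic reticulum, went opposite ways. Insig1 stood at -0.66, -1.0 and 0.65, with probes at 0.95 and 1.31. Insig2 stood at 3.61, 3.60 and 2.74, with probes at -1.19 and -0.87. Srebf2, an SREBP gene, had 3 probes between 0.23 and 0.48, under 2-fold. Lpin1, a phosphatidate phosphatase, stood at 3.27, 3.42 and 2.08, and its 4 probes ranged from -1.19 to -0.12.

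The sterol element TCACNCCAC, read on both strands, was found in the same window of 1 of 36 sterol genes (2.78%) and 1.44% of all genes. The match was in Hmgcs1, shown with the element in capitals (GRCm38.p6, plus strand, chr13:119690189-119690247).
Hmgcs1: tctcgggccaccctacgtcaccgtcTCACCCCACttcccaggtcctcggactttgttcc

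**Figure D3:**
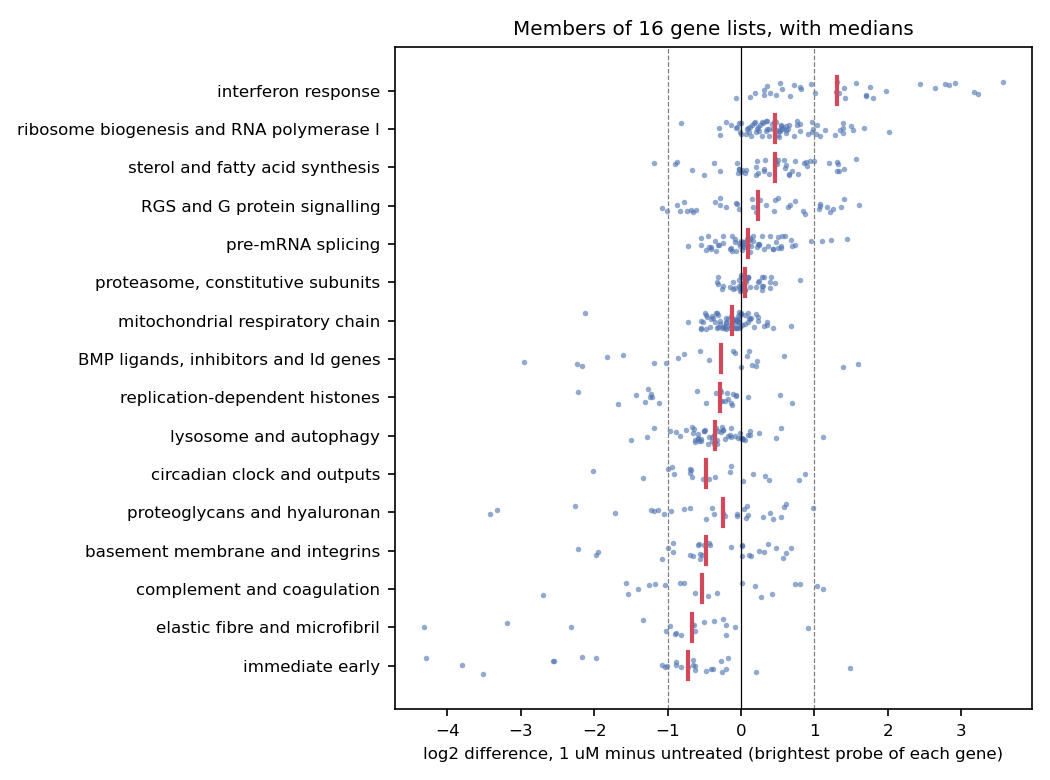
Log2 difference, 1 uM minus untreated, of the members of 16 gene lists by their brightest probe. Points are genes, red bars are medians over the points drawn, and dashed lines mark 2-fold. Bounds are drawn at their value and genes without a fold are left out. Interferon genes sit at the top with a median of 1.31, ribosome assembly and sterol genes are shifted to the right, and immediate early genes sit at the bottom with a median of -0.72.

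Of 22 genes of BMP ligands, inhibitors and Id proteins, 7 were lower by 2-fold or more and 2 higher, and the list median was -0.27, which was 0.25 after spike-in scaling. All 22 were above background on the untreated array and 19 at 1 uM. The ligand Bmp4 stood at 2.48 untreated, 2.90 at 0.01 uM and 0.25 at 1 uM, a difference of -2.23. Among the inhibitory SMADs, which BMP signalling itself induces, Smad6 stood at 0.47, 0.98 and -1.35, and Smad7 at 0.40, 0.42 and -0.80.

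All 4 Id genes were lower. Id2 is given above, and Id3 stood at 4.42, 4.95 and 2.26, a difference of -2.16. Id1 differed by -1.02, from 4.35 to 3.33, and Id4 by at least 1.61 downward, from -1.20 to below background. Bmper, a secreted modulator of BMPs, went the other way, at 1.40, 1.37 and 2.79 with probes at 1.26 and 1.39. Gdf15, a stress-induced ligand of the family, stood at -0.18, -0.25 and 1.42.

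Of 13 Notch genes, 2 were lower and 0 higher, and the list median was -0.36 (0.32 after spike-in scaling). Both are target genes, Hes1 at 2.04, 2.47 and -0.65, and Hey1 at -1.31, -1.41 and -2.40. Of 26 hedgehog and cilium genes, 3 were lower and 1 higher, and the list median was -0.41 (0.27 after spike-in scaling). The co-receptors Cdon (1.13, 1.12 and -0.97) and Boc (2.71, 2.95 and 1.29) were lower, as was the cilium transport gene Ift74 (-0.92, -1.12 and -2.14). Ptch1, the receptor and also a target gene of the pathway, was at least 3.47-fold higher, at -3.57, -3.39 and -1.22, and rested on 1 probe not above background on the untreated array.

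Among 30 growth factor ligands, 8 were lower by 2-fold or more and 2 higher (median -0.14, or 0.54 after spike-in scaling). All 30 were above background on the untreated array and 27 at 1 uM. Vegfc, a lymphatic growth factor, was at least 7.70-fold lower, at 0.14, 0.63 and -4.24. Cxcl12, a stromal chemokine, stood at 6.54, 6.96 and 4.37 (a bound of -2.17), and Gas6, a ligand of TAM receptors, at 4.99, 5.31 and 3.39. Igf1 was agreeing and lower, at -1.25, -1.0 and -4.81, and was not above background at 1 uM. Pdgfc stood at -0.25, -0.32 and 0.99, with probes at 1.24 and 1.27, and Btc at -1.22, -1.19 and -0.18.

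In each matrix list described next, more genes were past 2-fold lower than higher. The summed mesenchymal markers that were never saturated stood beside them at 299 untreated and 240 at 1 uM, and their part in these results was not tested. Of 19 elastic fibre genes, 5 were lower by 2-fold or more and 0 higher, and the list median was -0.67, below 0 in every scaling, background and filter alternative run, and -0.06 after spike-in scaling. All 19 were above background on the untreated array and 17 at 1 uM. Fbln5, which organises elastin, stood at 5.30, 5.48 and 2.99. Eln, elastin itself, stood at 0.39, 1.06 and -0.63. Efemp1 was at least 2.52-fold lower, at -1.47, -1.36 and -4.30, and Mfap5, a microfibril protein, at least 20-fold lower, at 1.52, 1.80 and -4.77.

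Of 29 proteoglycan and hyaluronan genes, 8 were lower and 0 higher, and the list median was -0.24 (0.45 after spike-in scaling). All 29 were above background on the untreated array and 22 at 1 uM, so those not detected at 1 uM could only come out lower. Ogn, a small leucine-rich proteoglycan, stood at 4.97, 5.15 and 1.64, a difference of -3.32. Prelp stood at 6.76, 7.02 and 5.63 with probes at -1.66 and -1.13, and Bgn at 4.63, 4.73 and 3.4. Aspn was at least 4.78-fold lower, at -0.55, -0.64 and -2.97.

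Of 30 basement membrane and integrin genes, 4 were lower and 0 higher (median -0.47, or 0.21 after spike-in scaling). Nid2, a linker of laminin and collagen networks, stood at 2.77, 3.39 and 0.55. The collagen-binding integrin Itga1 stood at 0.44, 0.56 and -1.55, Itgb4 at 1.93, 2.18 and 0.86, and Itgb7 at 4.34, 4.48 and 2.39. Fn1, fibronectin, had 3 probes at -1.66, -1.29 and a bound of -1.14.

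Of 51 actin regulator genes, 5 were lower and 0 higher. Acta2, smooth muscle actin, stood at 6.58, 7.02 and 5.55, with 2 measured probes at -3.22 and -0.95 and the others at bounds of -1.16 and -1.02, a spread wider than that of most genes. Lmod1 stood at 1.99, 2.01 and 0.11, Actg2 at 2.18, 2.36 and 0.44, and Synpo at 3.53, 3.71 and 2.3. Actin genes are close in sequence, so values of single copies are uncertain.

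Of 21 complement and coagulation genes, 7 were lower by 2-fold or more and 2 higher, and of 11 with several probes, 4 were agreeing and lower and 1 higher. The median was -0.53, but 0.15 after spike-in scaling and 0.16 without a filter on dim probes. In the classical pathway C4b stood at 1.63 untreated, 1.76 at 0.01 uM and -1.07 at 1 uM, C1s1 at 4.24, 4.42 and 2.85, and C1ra at 3.33, 3.47 and 2.3. Cd59a, which blocks the membrane attack complex, stood at 1.34, 1.62 and 0.17.

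F3, tissue factor, which starts coagulation, stood at 4.04, 4.17 and 2.48, with probes at -1.56 and -1.49. Procr, the protein C receptor, stood at 1.21, 1.23 and 2.33. Procr at 1 uM thus lay above both other arrays, while F3, C4b, C1s1, C1ra and Cd59a lay below them.

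Of 14 acute phase genes, 3 were higher and 3 lower. Saa3 and Saa1, serum amyloid genes with close copies, differed by 5.34 and 2.79. Ptx3, a long pentraxin, stood at 5.29, 5.59 and 4.10 with 3 probes from -1.54 to -1.19, and Lrg1 at 1.94, 2.39 and -0.88. Serpina3g stood at 3.60, 4.07 and 2.13. Of 27 NF-kB, IL-1 and TNF genes, 2 were higher, Il33 and Traf1 (1.49), and 2 lower, Il1rn (-3.20 and a bound of -0.71) and Tnfrsf1b (-1.02).

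Interferon response genes were higher, but largely on the evidence of single probes. Of 35 compared, 20 were higher by 2-fold or more and 0 lower, and the list median was 1.31, with a range of 1.01 to 1.99 over the scaling, background and filter alternatives. All 35 were above background at 1 uM and 31 on the untreated array, so 4 were compared only through the 1 uM array. Isg15, the ubiquitin-like modifier, stood at -1.14, -1.20 and 1.70, Mx2 at -0.40, -0.80 and 1.58, and Bst2, a viral tether, at 3.35, 3.4 and 4.68, on 1 probe each. Only 6 had several compared probes, and 0 of these were agreeing. Ddx58, the sensor RIG-I, had 3 probes from 0.19 to 0.84. Trim30a gave 0.59 and 0.95, Irgm1 0.56 and 0.67, and Ifit2 1.31 and a bound of 0.46. Ifi27 gave -0.07 and 1.09.

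Genes of the same response outside the list, picked after their values were seen, were agreeing. Gvin1, an interferon-induced GTPase, stood at -0.06, -0.31 and 1.42, with 3 probes from 0.87 to 1.48. Ifi27l2a stood at 3.14, 2.83 and 3.87. Trim30d stood at -2.94, -1.19 and -1.62, so there the untreated array stood below both exposed ones. Nlrc3, an attenuator of innate sensing, stood at -0.74, -0.86 and 0.17.

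Leukocyte markers stood beside these genes as follows. Of 19, 2 were above background on the untreated array, 2 at 0.01 uM and 3 at 1 uM, and their summed level was 5.38, 5.47 and 5.51. Cd68, at 2.08, 2.01 and 2.04, made up most of each sum, so the sum says little of the other markers. Lyz2 stood at -1.07, -0.96 and -1.39. Aif1, at -3.26, -3.98 and -2.29, was above background at 1 uM but not on the untreated array. Ptprc, which marks all leukocytes, was above background on neither the untreated nor the 1 uM array. MHC class I presentation, which interferon also induces, had 1 of 19 genes at least 2-fold higher, 0 lower and a median of 0.06. That 1 gene was Cd74, which belongs to class II presentation.

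The core of the interferon-stimulated response element, searched as GAAA, any 2 bases and GAAA on either strand, was in the start window of 14 of 25 interferon genes with a promoter sequence (56.0%) and of 3.99% of all 27025 genes. It was in 7 of 13 genes at least 2-fold higher and in 7 of 12 of the rest, so its presence did not separate them. The stretches below show the element in Oas1a (chr5:120907526-120907564, minus strand), Isg15 (chr4:156200850-156200909, minus strand) and Ifit1 (chr19:34640779-34640838, plus strand), from RefSeq on GRCm38.p6. Each is read along the gene, with matches of the core on either strand in capitals, and overlapping matches run together.
Oas1a: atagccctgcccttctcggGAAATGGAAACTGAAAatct
Isg15: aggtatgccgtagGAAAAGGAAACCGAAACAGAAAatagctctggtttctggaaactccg
Ifit1: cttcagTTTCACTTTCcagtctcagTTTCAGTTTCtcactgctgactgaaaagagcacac
Ifit1 itself stood at -1.99 untreated, -2.67 at 0.01 uM and 0.66 at 1 uM, and Oas1a, with a bound of 3.23, at -4.46, -4.18 and 0.21.

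Immediate early genes were lower as a list, with 10 of 27 at least 2-fold lower, 1 higher and a median of -0.72, which was -0.03 after spike-in scaling. The 3 that were agreeing act in feedback or as zinc finger factors. Zfp36, which speeds decay of AU-rich mRNAs, stood at 3.42, 4.06 and 1.26 with probes at -2.55 and -2.16. Btg2, an antiproliferative gene, stood at 5.30, 5.60 and 3.32 with 3 probes from -1.98 to -0.97. Klf2 stood at 5.61, 6.12 and 3.05. Fosb stood at 3.28, 3.68 and -1.01, Fos at 3.61, 4.15 and -0.19, and Egr4 at 2.39, 2.41 and -0.16.

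Dusp1, a MAP kinase phosphatase, stood at 3.98, 4.20 and 2.97, and Egr2 at 4.86, 5.0 and 3.79. The exception, Nr4a2, an orphan nuclear receptor, stood at -0.50, -0.30 and 0.99. The full cAMP element TGACGTCA, a palindrome, was in the start window of 3 of 21 immediate early genes (14.3%) and 2.03% of all genes, and the CArG box, the site of serum response factor, also in 3 of 21 (against 1.81%). One stretch of each is shown with the element in capitals, for Btg2 (cAMP element, chr1:134079289-134079346, minus strand) and Zfp36 (CArG box, chr7:28379252-28379311, minus strand), GRCm38.p6.
Btg2: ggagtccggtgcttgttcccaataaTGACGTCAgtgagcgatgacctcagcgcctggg
Zfp36: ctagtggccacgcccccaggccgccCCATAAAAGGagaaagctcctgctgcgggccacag

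Of 38 RGS and G protein genes, 9 were higher by 2-fold or more and 2 lower, and the list median was 0.24. Pde4b, a phosphodiesterase that breaks down cyclic AMP, was at least 3.05-fold higher, at -3.58, -4.35 and -1.41, and its probes gave bounds of 1.1 and 1.61. Pde4d was at least 2.57-fold higher, Pde1b stood at -0.20, 0.01 and 0.87, and Pde2a had a bound of 1.21.

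The others were the cyclases Adcy7 (-1.42, -1.38 and -0.25) and Gucy1b1 (bound of 1.40), the nucleotide receptor P2ry6 (-2.51, -3.65 and -1.26), Rgs16 (-1.14, -1.1 and -0.07) and Rgs11 (bound of 1.06). Of the 9, 5 were bounds with no signal well above background on the untreated array. Lpar4 stood at 1.37, 1.47 and 0.31, and Edn1 was lost from detection at 1 uM.

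Guidance genes went both ways. Of 33, 4 were higher by 2-fold or more and 4 lower. The lower ones included 3 secreted class 3 semaphorins, Sema3g at 2.96, 3.16 and -1.5, Sema3b at 2.05, 2.24 and -0.04, and Sema3f at 0.69, 0.99 and -0.41. The membrane-bound Sema5a was higher, at 0.39, 0.26 and 2.07, with probes at 1.05 and 1.68. Efna5 (-0.22, -0.29 and 1.56) and its receptor Epha7 (-1.35, -1.21 and 0.30) were both higher, and Efnb3 had a bound of 1.07, while the netrin receptor Unc5c was lower, at -0.92, -0.59 and -2.55.

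Among 28 ion channel and pump genes, 4 were lower and 1 higher. Atp1b1, the beta subunit of the sodium pump, stood at 0.18, 0.07 and 2.12. Fxyd1, a regulator of the same pump, stood at 0.82, 1.12 and -1.91, with probes at -2.73 and a bound of -1.57. Aqp5, a water channel, stood at 4.10, 4.27 and 2.40, Cacna1g at 1.97, 2.10 and 0.80, and Kcna1 at -1.19, -1.34 and -2.70.

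Of 12 sulfate and anion transporter genes, the class through which chromate enters cells, 1 was higher and 0 lower. That gene was Slc20a1, a phosphate transporter, at 2.94, 3.31 and 4.30.

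In prostaglandin metabolism, 2 of 18 genes were higher and 2 lower. Ptgis, prostacyclin synthase, was at least 8.17-fold lower, at 0.22, 0.42 and -4.79, and the phospholipase Plaat3 stood at 1.95, 1.73 and 0.65. Akr1c18, a steroid reductase with close family members, stood at -1.91, -1.26 and 2.14, and the transporter Slco2a1 at -1.35, -1.56 and -0.06.

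Of 38 reductase, aldehyde dehydrogenase and retinoid genes, 4 were lower and 1 higher (Akr1c18), with a median of -0.36 (0.33 after spike-in scaling). Cyp1b1, an oxidase of hydrocarbons and steroids, stood at 3.94, 4.00 and 2.25, and its probes gave -1.70 and a bound of -0.60. Hsd11b1, which activates glucocorticoids, stood at 4.55, 4.76 and 3.22, and Aldh6a1 at 1.92, 2.00 and 0.51.

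Of 25 stromal surface genes, 4 were lower and 3 higher. Thy1, a glycoprotein of fibroblasts, stood at 2.84, 3.41 and -3.56, at least 50.2-fold lower on 1 probe. Enpp1 stood at 2.00, 2.13 and 0.87 and Tspan7 at 3.52, 3.74 and 2.23. Cd34 stood at -1.28, -1.65 and -0.13, and Mcam, an adhesion molecule of perivascular cells, was at least 2.69-fold higher. Of 19 mesenchymal transition and cadherin genes, 4 were higher and 2 lower, and 16 were above background on the untreated array and 19 at 1 uM. Pcdh7 stood at -1.18, -1.14 and 0.53, Snai1 at 2.44, 2.67 and 1.30, and Cdh5 had a bound of 1.92, Krt19 and Cdh10 of 1.31. Cdh5, Krt19 and Cdh10 were compared only through the 1 uM array, so they could only come out higher. The summed endothelial markers, Cdh5 among them, stood at 6.34 untreated and 9.85 at 1 uM, and Flt1 made up most of both sums. Flt1 stood at 1.98 untreated and 2.94 at 1 uM, Vwf at 1.03 and 0.48, and Pecam1 was above background on neither array. The part of the endothelial markers in Cdh5, Cd34 and Mcam was not tested.

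Of 15 junction and keratin genes, 3 were lower and 0 higher. The connexin Gjb5 (-1.51, -1.29 and -5.04) and the desmosomal Pkp2 (-1.34, -1.45 and -2.80) were lost from detection at 1 uM. Of 24 Hox and positional genes, Hoxc9 was at least 2.46-fold lower and Tbx2 at least 2.19-fold higher. Of 12 imprinted genes, 2 were lower, Igf2 and Zrsr1 (0.76, 0.82 and -0.36).

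Several housekeeping lists stayed close to the median of all genes. Of 42 constitutive proteasome genes, 0 were past 2-fold in either direction, with a range of -0.33 to 0.81 and a median of 0.05. Its brightest members, Sem1 (6.52, 6.91 and 6.39) and Psmd3 (6.35, 6.57 and 6.35), were saturated on at least 1 of the arrays and gave no fold. Of 78 respiratory chain genes, 1 was lower, the muscle-type subunit Cox7a1, at least 4.36-fold, and 0 were higher (median -0.12). Of the 78, 17 lay above 0, against 5838 of all 12463 genes, so most differences were small and downward. Of 51 endoplasmic reticulum genes, 1 was lower, the collagen hydroxylase Plod1, at 3.72, 3.87 and 2.35.

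Of 47 chaperone genes, 1 was lower and 1 higher. Dnajb1, a co-chaperone of HSP70, stood at 6.36, 6.54 and 4.63 with probes at -1.73 and -0.85. Fkbp5 was 3.46-fold higher by its brightest probe, but its other probes gave bounds of 0.65 and 0.40. Of 60 lysosome and autophagy genes, 3 were lower and 1 higher, and the list median was -0.35 (0.33 after spike-in scaling). Of the 60, 11 lay above 0, where 5838 of all 12463 genes did. Map1lc3b, the autophagosome protein LC3, stood at 5.74, 5.94 and 4.24, Ctso at 1.02, 0.97 and -0.26 and Idua at -0.30, -0.24 and -1.48. Gusb, a lysosomal glucuronidase, stood at 0.96, 1.06 and 2.08.

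Of 27 replication-dependent histone genes, 9 were lower by 2-fold or more and 0 higher, and the list median was -0.28 (0.41 after spike-in scaling). H1f2, a linker histone, stood at 6.04, 6.32 and 3.82, H2bc4 at 1.60, 1.70 and -0.07, H4c9 at 2.74, 2.86 and 1.43, and H2bc12 at 3.48, 3.68 and 2.21 with probes at -1.27 and -1.14. Other members were nearly level, H2ac10 at -0.26 and H2ac20 at -0.07. Most of these mRNAs end without a poly(A) tail, labelling was primed with oligo-dT, and the copies are nearly identical, so these values are uncertain for single genes.

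Of 69 DNA and histone modifying enzymes, 2 were lower and 1 higher. The Polycomb genes Cbx7 (1.07, 0.76 and -0.73) and Ezh1 (-0.20, -0.28 and -1.5) were lower, and Kmt5a, the H4K20 methyltransferase, stood at 1.52, 1.57 and 2.56 with 3 probes at 1.04, 0.85 and a bound of 0.60. Of 20 clock genes, 3 were lower and 0 higher, and the list median was -0.47 (0.21 after spike-in scaling). The repressors Bhlhe41 (-0.73, -1.24 and -2.75, a bound of -2.02) and Per2 (-0.28, -0.54 and -1.62) and the output factor Dbp (5.34, 5.46 and 4.34) were the 3.

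Some agreeing genes host a microRNA, whose own level was not measured. Dleu2, a noncoding RNA that carries Mir16-1, stood at 0.06, 0.17 and -1.88, with probes at -1.94 and -1.67. Igf2 carries Mir483. Their mature RNAs are shown because these hosts had the lowest medians among the agreeing hosts, with the seed, bases 2 to 8, in capitals (RefSeq, GRCm38.p6).
miR-16-5p: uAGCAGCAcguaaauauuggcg
miR-16-1-3p: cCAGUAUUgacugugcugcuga
miR-483-5p: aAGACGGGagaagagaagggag
miR-483-3p: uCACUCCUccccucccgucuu
The 4 seeds differ.

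Probes of 1 gene lay at least 2-fold apart in both directions in 4 genes. Dclk1, a doublecortin-like kinase, had 7 compared probes. Its 6 probes of RefSeq transcripts gave -1.74 to -0.37, and 1 probe of a cDNA clone, at -2.92, -3.12 and -1.87, gave 1.05. In Dclk1 the 3 probes nearest the end of the main transcript, starting at its bases 5123, 5316 and 7675, gave -1.67, -1.74 and -1.46, and those at 1031 and 2338 gave -1.06 and -0.83. The probe of a second RefSeq form gave -0.37.

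In Tcf7l2, a Wnt transcription factor, a probe starting at base 1077 gave at least 1.51 upward, and probes at bases 2368 and 3494 gave at least 0.81 downward and -1.09. In Masp1, a complement protease with several protein forms, 1 clone's probe stood at 4.09, 4.13 and 2.56 and the other at -4.32, -3.43 and -1.90. In Ier2 the probe of the mRNA stood at 6.43, 6.85 and 5.39, and a dim clone's probe at -2.10, -2.88 and -0.76. In each gene the dimmest probe on the untreated array was the one that was higher at 1 uM.

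**Figure D4:**
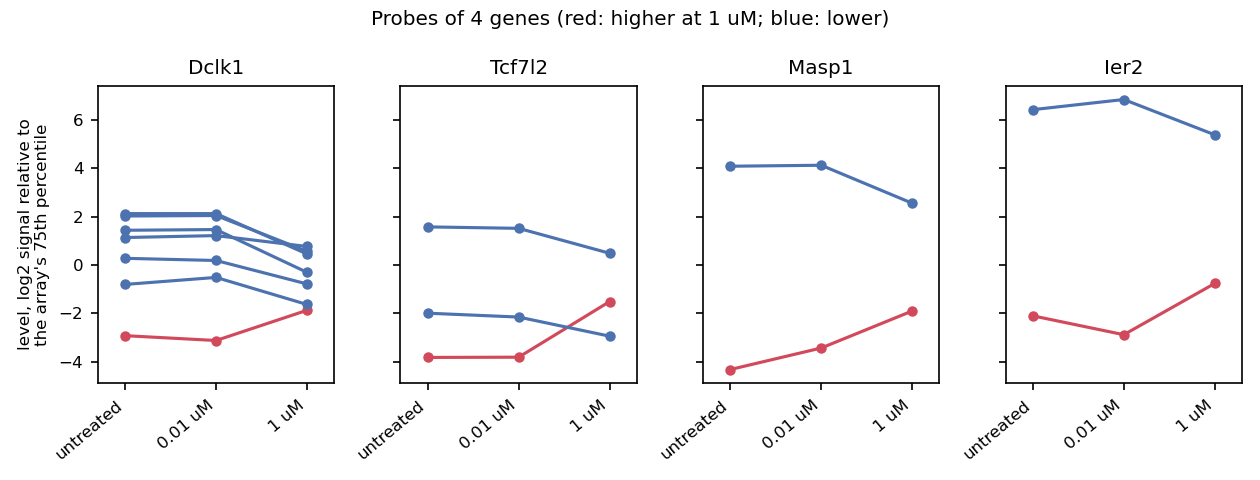
Level of each compared probe of Dclk1, Tcf7l2, Masp1 and Ier2 on the 3 arrays, in log2 units relative to the 75th percentile. Each line is 1 probe, red where higher and blue where lower at 1 uM. The red probe of each gene starts lowest, at -2.92, -3.82, -4.32 and -2.10.

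How many genes were higher varied with their level. The compared genes were ordered by level and cut into 4 equal groups. In the dimmest group 15.1% were 2-fold or more above untreated and 5.74% below, and in the brightest 0.834% were above and 4.14% below. The transcript a probe was made for mattered as well. Among genes read by a probe of a RefSeq NM transcript (9786 genes) 3.92% were higher and 4.88% lower, and among genes read by a probe of another transcript, such as a cDNA clone or predicted gene (2677 genes), 12.1% were higher and 4.74% lower. Within the dimmest group the higher shares were 11.7% and 19.9%. In 907 genes with both kinds of probe, the median difference was -0.03 for the NM probes and 0.12 for the others, and the other probe lay above the NM probe in 564 (62.2%). It lay 2-fold or more above in 89 genes and 2-fold or more below in 20. The part of low level and probe type in the higher counts, those of the gene lists included, was not tested.

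**Figure D5:**
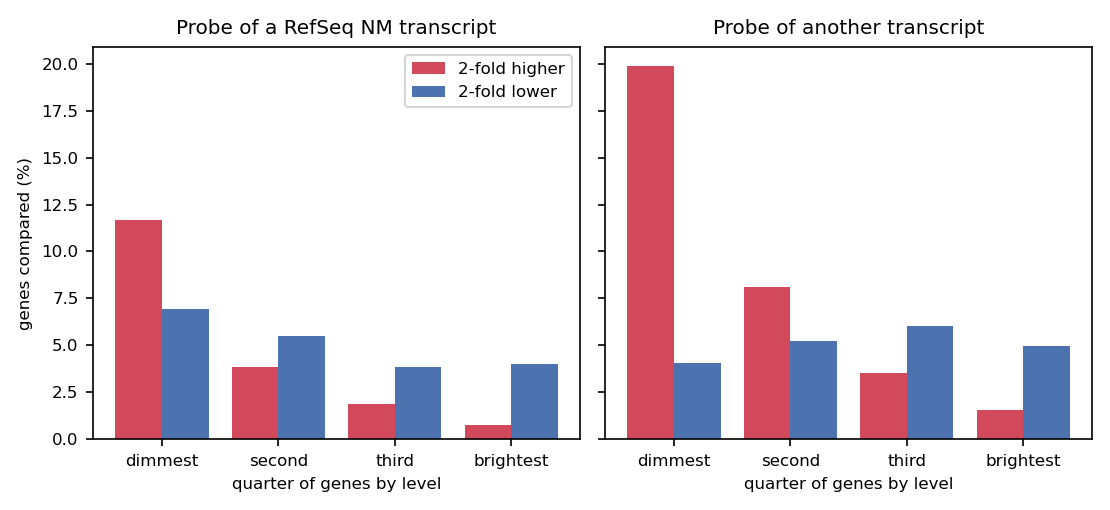
Percent of compared genes at least 2-fold higher (red) and lower (blue) at 1 uM, in 4 equal groups by level, for genes whose brightest probe was made for a RefSeq NM transcript (left) or another transcript (right). The higher share is largest in the dimmest group, 11.7% on the left and 19.9% on the right, and the lower share varies less.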

How the data were processed

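Cy3-labelled RNA of 3 groups was read on Agilent whole-genome mouse arrays of 1 slide. The authors took each spot's intensity from the scan with Feature Extraction 10.5.1.1, per the file headers. The deposited value table holds log2 values, each column being log2 processed signal minus 1 constant (9.45, 9.01 and 9.56 for untreated, 0.01 uM and 1 uM) within 0.01 for at least 99.8% of probes. Control and outlier spots were left out, spots of a probe averaged, and the 75th percentile of each array over all probes subtracted. Since under 50% of probes were above background, scaling on detected probes was an alternative, as were loess (span 0.4), quantile, spike-in and normexp (offset 50, limma 3.58.1 in R 4.3.3) settings, filters and thresholds.

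Probes were named through RefSeq accessions (25250), symbols in the file (6232) or synonyms (1610), and for 8075 the name in the file stands. For a bound, the dim value was raised to the lowest detected signal of its array where it lay below it. Named genes were the 12 agreeing genes with the largest median per direction, and up to 4 members at least 2-fold apart per list and direction, agreeing genes first, or the 2 brightest members of a list with none. Genes outside this rule are marked or serve their list. The members and the 38 lists were chosen with earlier results of these data known. Python 3.11.15 with numpy 2.4.6 and pandas 2.3.3 was used, and the counting was tested on simulated data. Some results are not reported here.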

Additional observations from a re-analysis of the deposited data

How the results depend on the processing

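No paired analysis was possible because each group has 1 array. Counts were recomputed with 10 other settings of scaling, background, filter, spots and values, and with other thresholds. The 80 higher agreeing genes became 126 after loess scaling, 819 after spike-in scaling, 30 with normexp, 53 with both arrays required above background, 140 with no filter, 8 at 3-fold and 47 with every probe at 2-fold. The 129 lower ones became 33 after spike-in scaling and 44 at 3-fold. The 707 higher genes became 3134 after spike-in scaling, 290 with normexp, 1759 with no filter and 173 at 3-fold, and the 605 lower genes 175, 1166 and 201 with spike-in scaling, no filter and 3-fold. The 239 genes with a median past 2-fold became 929 (spike-in), 130 (normexp) and 508 (no filter), and without a filter 59.4% of them had probes that agree. List medians turned positive after spike-in scaling for complement (0.15), basement membrane (0.21), proteoglycans (0.45), Notch (0.32), hedgehog (0.27), BMP (0.25), reductases and retinoids (0.33), lysosome (0.33), clock (0.21) and histones (0.41), as did 10 with a median between -0.19 and -0.05, growth factor ligands (0.54) among them, and with no filter for complement (0.16), basement membrane (0.01) and Notch (0.01). Normexp kept 30 of the 80 higher and 90 of the 129 lower agreeing genes. All 159 named genes past 2-fold kept their side in each of the 10 settings that gave them a value, but 115 stayed past 2-fold after spike-in scaling and 123 with normexp. These genes were chosen as past 2-fold in the main setting, and spike-in scaling moved the median over all genes by less, to 0.67. That they kept their side was therefore largely fixed by the choice. The authors' values nearly repeat the main setting. The labels do not say how much spike-in went with how much RNA. With 1 array a group, precision is limited by the number of arrays.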

Other observations

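Neighbouring genes were compared along the genome by the order of the RefSeq table (GRCm38.p6). Of 480 higher genes placed, 33 (6.88%) were followed by another higher gene, where 4.39% of all placed genes were higher, and of 541 lower genes, 49 (9.06%) were followed by another lower gene, where 4.94% were lower. There were 8 runs of 3. Of the lower runs, 1 on chromosome 13 held the proteoglycan genes Aspn, Omd and Ogn, 1 on chromosome 15 held Tnfrsf11b (1.56, 1.85 and -0.53 on the untreated, 0.01 uM and 1 uM arrays), Colec10 and Ccn3, and 1 on chromosome 7 held Igf2, Tspan32 and R74862. Those on chromosome 3 (Gstm3, Gstm2 and Gstm1) and 16 (Cstdc4, Csta2 and Cstdc5) held gene copies that are close in sequence, so their separate values are uncertain. The same holds for C1ra and C1rb in the lower run on chromosome 6 (C1ra, C1s1 and C1rb). It also holds for Ctla2b and Ctla2a in the higher run on chromosome 13 (Ctla2b, Ctla2a and Zfp808). There Zfp808 had a bound of 1.14 and was not above background on the untreated array. In the lower run on chromosome 10 (Fam13c, Bicc1 and Tfam), Bicc1, an RNA-binding protein, had 3 probes from -1.86 to -1.53, but Tfam had a median of 0.07 over its 3 probes against -1.03 at the brightest, so that run rests on 1 Tfam probe.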
